A study of Mus musculus with 2 samples.

Results

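Transcripts of 46 enzymes that break down amino acids or begin the synthesis of creatine were compared between kidneys of transgenic and wild-type mice after acute kidney injury. The genes were chosen by name, as enzymes of these pathways, with earlier results of these data known. All 46 of the 46 names had a row among the 19829 genes of the deposited table. One library (WT+AKI) came from kidneys of wild-type control littermates and the other (TG+AKI) from mice that overexpress *Inmt*, an N-methyltransferase of indoles and amines, in proximal tubules. Whether a library held 1 mouse or a pool was not given in the sources used here. All mice were males on the C57BL/6 background and had received voclosporin, a calcineurin inhibitor, intraperitoneally at 30 mg/kg daily for 2 weeks. Dosing ended weeks before ischemia and reperfusion of both kidneys, which came at 14 weeks of age with 30 min of ischemia. The surgery and the drug were thus shared by both libraries. The degree of injury differed in the study's report, with lower serum urea nitrogen and creatinine in the transgenic than in the wild-type group. No library from uninjured kidneys was at hand, so a rise in 1 group and a fall in the other cannot be told apart. These details of age, drug and surgery are from the study's methods. The promoter that drives the transgene was not given in the sources used here. The sample labels conflict with this account, since the treatment field reports none and the title of the transgenic sample also contains the words conditional knockout.

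The proximal tubule reabsorbs nearly all filtered amino acids and is, with the liver, a main site of their breakdown. The kidney makes arginine from citrulline that the gut releases, and it converts arginine and glycine to guanidinoacetate, which the liver methylates to creatine. Proximal tubules also release ammonia from glutamine and glutamate, and they oxidize branched-chain, aromatic and methylated amino acids in mitochondria, cytosol and peroxisomes.

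Reads recovered over the 19829 listed genes numbered 38542764 (WT+AKI) and 36427421 (TG+AKI), and shares of reads are of these totals. Values are normalized read counts, and pairs of values are given with WT+AKI first. *Inmt* itself had values of 10.4 and 402.8, a ratio of 38.5 [35.1 to 42.5], in the direction of the transgenic label. The study reports that INMT staining falls in wild-type kidneys under the drug and ischemia. The share of the transgene in this ratio was not tested. Square brackets give 95% exact (Clopper-Pearson) intervals of a ratio from the reads of the 2 libraries. They cover counting error only, because no value below has a replicate and the reads carry no molecular identifiers. Log2 fold changes compare TG+AKI with WT+AKI on the log2(value + 1) scale, and a gene was called higher or lower where this scale showed 2-fold or more. Mitochondrially encoded transcripts took 13.7% of the reads in WT+AKI and 19.2% in TG+AKI.

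Most of the 46 enzymes were more abundant in the transgenic kidney. In TG+AKI 26 members were called higher and 1 was called lower, whereas 5.74% of the 10294 genes compared were called higher and 7.12% lower. The sign of the log2 fold change was positive for 41 members, against 51.2% of the genes compared. The median log2 fold change was 1.13 over the members and 0.014 over the genes compared. Summed over the members, the values were 7253 and 16419, and their share of all reads was 0.798% and 1.49%. An exact binomial test on the reads separated 45 of the 46 members and 80.5% of the genes compared, and it compared these 2 libraries, not the conditions. All 46 members reached a value of 10 in at least 1 library, the minimum for a comparison.

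When the libraries were scaled to equal totals, which moved the median log2 fold change of the genes compared to -0.25, 17 members were called higher and 1 lower, against 3.57% and 10.7% of the genes compared. The share of called genes that were higher was 25.02% in place of 44.6% over the genes compared, and it was 34.0% with a median ratio of 1 among abundant genes. Of the 46 members, 40 lay above the median of the genes compared, a count that a change of scaling moves little by construction.

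**Figure D1:**
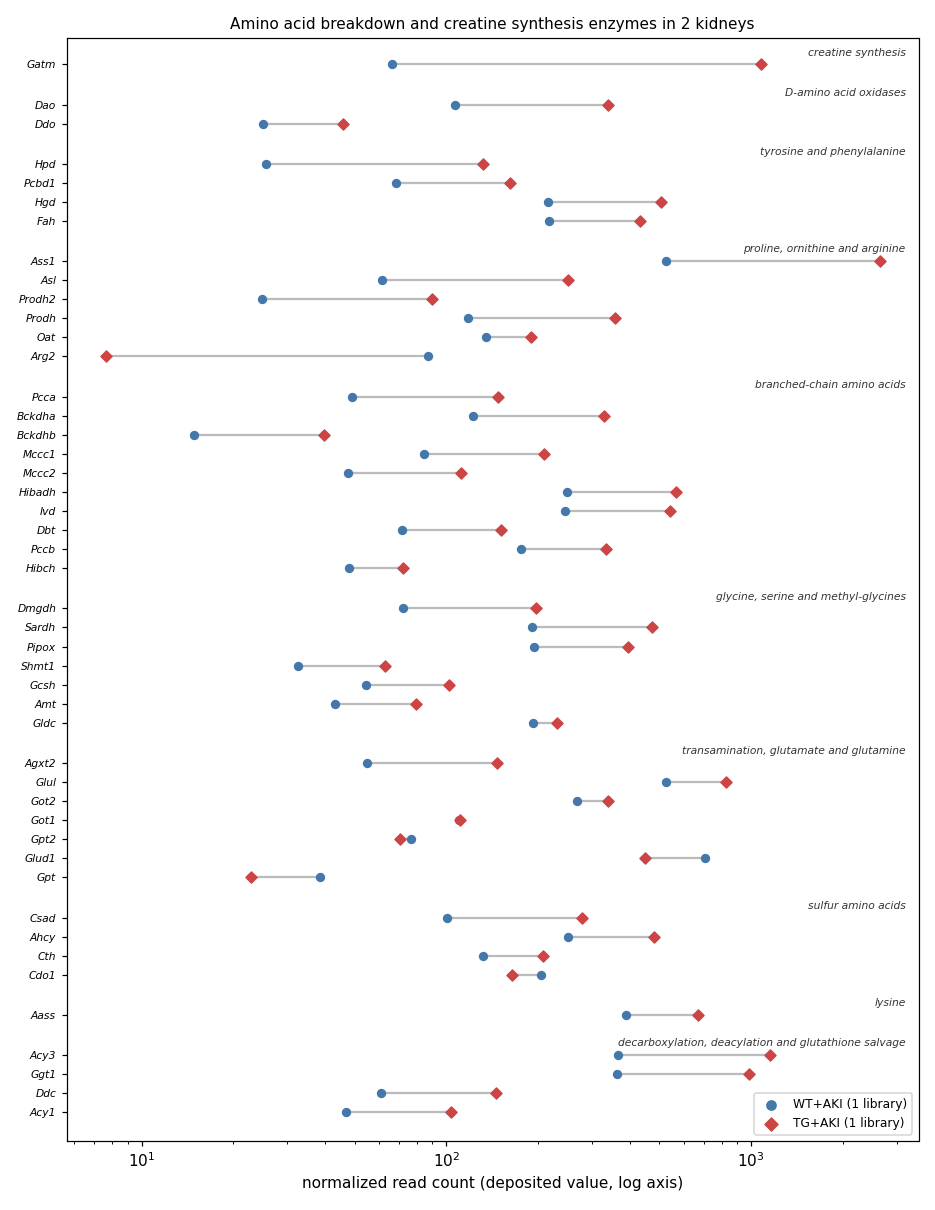
Normalized read count of each of the 46 enzymes (log axis) in WT+AKI (blue circles) and TG+AKI (red diamonds), 1 library each, grouped by pathway and ordered by ratio within a group. The red diamond lies to the right for 41 genes, and *Arg2* is the member with the largest shift to the left, from 87.2 to 7.61.

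Arginine and creatine enzymes held the largest differences in both directions. *Gatm* encodes glycine amidinotransferase, the first enzyme of creatine synthesis, and lies on chromosome 2 of GRCm38.p6 at chr2:122594473-122611277. Its values were 66.3 and 1075, a ratio of 16.2 [15.6 to 16.9]. By log2 fold change it ranked 5th from the top among the 10294 genes compared. The median over the other 45 members was 1.12, a statistic that leaving out any single gene can move little. Their summed values were 7186 and 15345, a ratio of 2.14, against 2.26 with *Gatm*.

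Both enzymes that make arginine from citrulline were called higher. *Ass1*, argininosuccinate synthase at chr2:31470270-31520670, had values of 523.5 and 2643, a ratio of 5.05 [4.97 to 5.12]. *Asl*, argininosuccinate lyase at chr5:130011258-130024381, had values of 61.6 and 250.03, a ratio of 4.06 [3.88 to 4.24]. *Ass1* shares 38.9% of the 100-base words of its longest transcript with the pseudogene *Gm5424*. That pseudogene was listed at 8.68 and 44.5, a ratio of 5.13, and the split of reads between both genes is uncertain.

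*Arg2* went the other way. It encodes the mitochondrial arginase, which splits arginine to ornithine and urea, and lies at chr12:79130788-79156301. Its values were 87.2 (3696 reads) and 7.61 (252 reads), so TG+AKI was 11.5-fold lower [10.1 to 13.1], a log2 fold change of -3.36. Of its exonic bases, 28.1% overlap exons of genes on the opposite strand, *Vti1b* among them, which was listed at 65.4 and 60.1. *Oat*, which moves ornithine toward glutamate and proline, had values of 135.0 and 189.8 and was not called.

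Proline breakdown enzymes were called higher. *Prodh*, proline dehydrogenase, had values of 117.6 and 356.9, a ratio of 3.03 [2.94 to 3.14]. *Prodh2*, which oxidizes hydroxyproline, had values of 24.9 and 89.8, a ratio of 3.61 [3.36 to 3.87]. The intervals of this pair did not overlap. In the group of proline, ornithine and arginine enzymes, 4 of 6 members were called higher and 1 lower, with a median log2 fold change of 1.70.

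The bases just before the transcription start are shown for the member with the largest difference and for a called and an uncalled member that both hold an E-box. An E-box is a short palindrome that many helix-loop-helix factors bind. The letters CACGTG, searched on both strands of the 250 bases before each start, occurred for 5 of the 40 members with a promoter (12.5%), 6.86% of the 27025 genes with one and 10.4% of the 8168 compared genes with one. The sequences are from RefSeq on GRCm38.p6, run 5′ to 3′ on the gene's strand, and end before the first annotated base of the gene, which leaves 224 of the 250 searched bases for *Gatm* and all 250 for the others. Capitals mark the E-box. The windows are chr2:122611304-122611527 (minus strand) for *Gatm*, chr13:100015640-100015889 (minus strand) for *Mccc2* and chr10:40629761-40630010 (plus strand) for *Ddo*.
Gatm: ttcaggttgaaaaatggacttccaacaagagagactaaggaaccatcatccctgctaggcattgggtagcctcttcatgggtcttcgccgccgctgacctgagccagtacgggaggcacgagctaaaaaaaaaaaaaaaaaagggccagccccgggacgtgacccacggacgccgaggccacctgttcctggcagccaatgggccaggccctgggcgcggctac
Mccc2: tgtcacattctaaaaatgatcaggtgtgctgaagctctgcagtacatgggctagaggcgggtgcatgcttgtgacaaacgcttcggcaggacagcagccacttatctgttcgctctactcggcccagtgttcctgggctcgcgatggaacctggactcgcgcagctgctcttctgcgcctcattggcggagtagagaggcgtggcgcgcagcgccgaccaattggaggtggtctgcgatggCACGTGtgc
Ddo: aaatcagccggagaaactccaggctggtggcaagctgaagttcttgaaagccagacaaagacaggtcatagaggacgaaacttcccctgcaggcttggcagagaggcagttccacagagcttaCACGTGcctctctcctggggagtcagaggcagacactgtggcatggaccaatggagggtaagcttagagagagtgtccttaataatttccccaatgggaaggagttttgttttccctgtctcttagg

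The E-box began 9 bases before the start of *Mccc2*, which was called higher, and 127 before that of *Ddo*, which was not. The other members with these letters were *Acy1*, *Ass1* and *Dao*, all called higher. The HNF4 letters CAAAGTCC occurred in *Agxt2*, *Ggt1* and *Pipox*, or 3 of the 40 members, against 1.38% of all genes with a promoter and 1.53% of the compared ones. Letters for AP-1 (TGAGTCA) were found for 1 member, 5.16% of all genes with a promoter and 4.04% of the compared ones. Those for a CRE (TGACGTCA) were found for 1 member, 1.77% of all genes and 2.99% of the compared ones. The TATA box letters TATAAA were found for 7 members (17.5%), against 14.3% and 8.06% of the compared ones. These matches describe letters in a short window, not bound sites, and the HNF4 spelling and the genes shown were chosen after matches had been seen. No window was at hand for *Arg2*, *Asl*, *Cdo1*, *Cth*, *Dbt* and *Gpt*.

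In tyrosine breakdown 3 of 4 members were called higher and all 4 were above 0, with the largest ratio at the step from hydroxyphenylpyruvate to homogentisate. *Hpd*, the dioxygenase of that step, lies at chr5:123171807-123182723. It had values of 25.6 and 131.4, a ratio of 5.13 [4.79 to 5.48]. *Hgd*, which opens the ring of homogentisate, had values of 214.9 and 506.9, a ratio of 2.36 [2.30 to 2.42].

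*Fah*, the last enzyme of the pathway, had values of 217.05 and 432.3. Its ratio of 1.99 [1.94 to 2.04] left it just under the 2-fold line, with a log2 fold change of 0.99. *Pcbd1*, which recycles the tetrahydrobiopterin cofactor, had values of 68.3 and 161.6, a ratio of 2.37 [2.26 to 2.48].

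**Figure D2:**
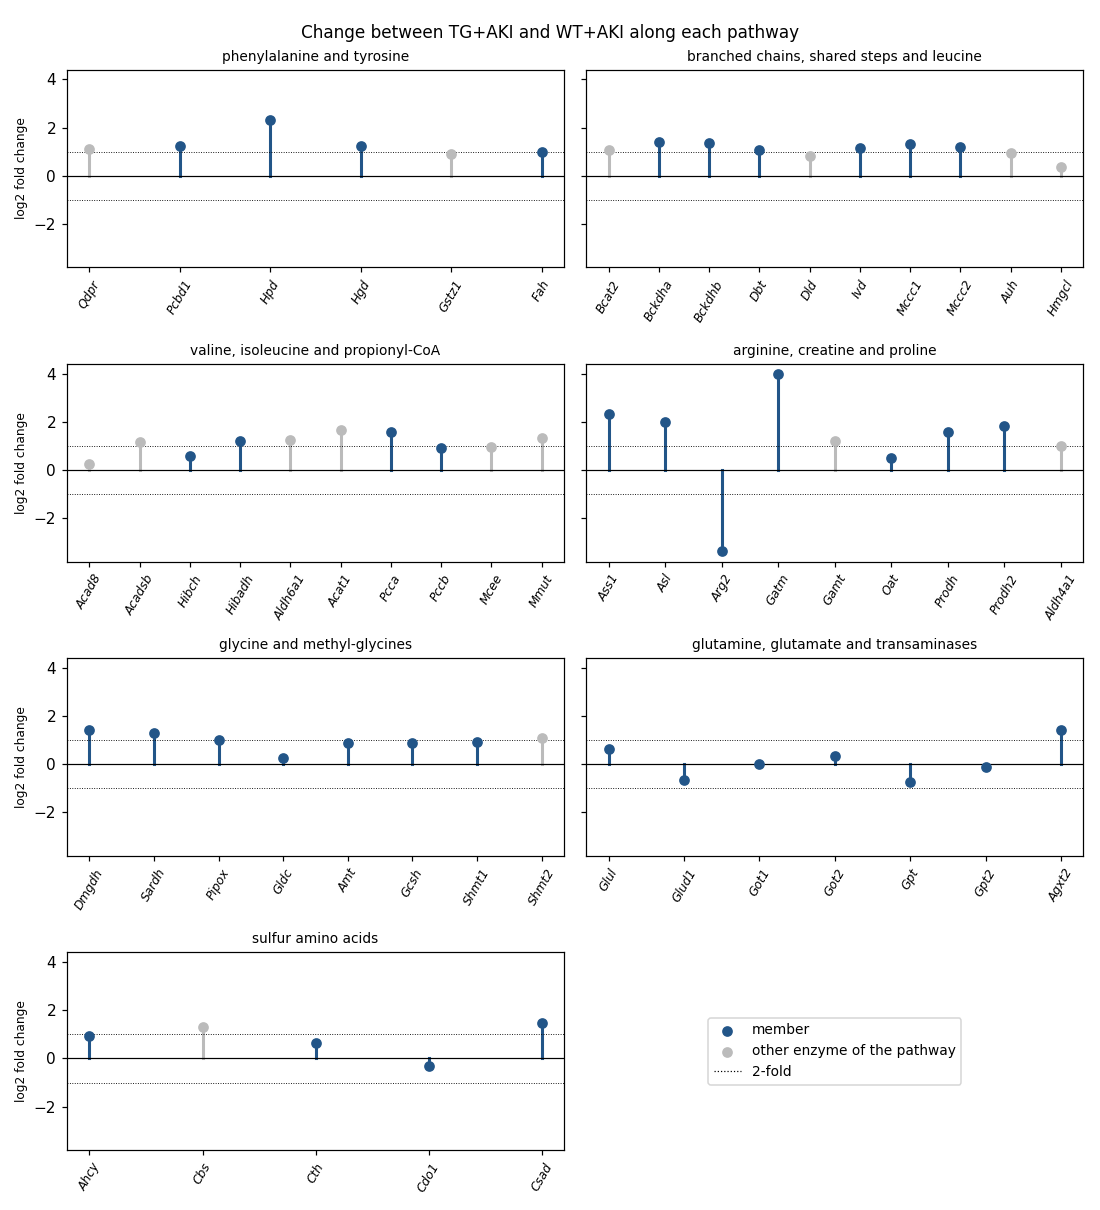
Log2 fold change (TG+AKI over WT+AKI, log2(value + 1) scale) of each enzyme in approximate pathway order, with members in blue, other enzymes in grey, 1 library per group and dotted lines at 2-fold. Bars point upward at every drawn step of tyrosine, branched-chain and glycine breakdown (that of *Gldc*, 0.26, turns with equal totals), whereas the panel of glutamine, glutamate and transaminases holds bars on both sides of 0, from -0.73 for *Gpt* to 1.40 for *Agxt2*.

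Most enzymes of branched-chain amino acid breakdown were called higher. All 10 members were above 0 and 8 were called higher, with log2 fold changes between 0.58 and 1.58 and a median of 1.20. The branched-chain ketoacid dehydrogenase commits these amino acids to breakdown. Its subunit genes *Bckdha* (122.7 and 329.02, ratio 2.68 [2.60 to 2.77]) and *Bckdhb* (14.8 and 39.6, ratio 2.67 [2.43 to 2.94]) had overlapping intervals. *Dbt*, the core of the same complex, had values of 71.7 and 150.9, and its ratio of 2.11 [2.01 to 2.20] lay below both. For *Bckdha*, 61.7% of the exonic bases overlap *B3gnt8* on the opposite strand, which was listed at only 2.88 and 1.54.

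The downstream carboxylases carry biotin. Both subunit genes of methylcrotonyl-CoA carboxylase, in the leucine branch, had near-equal ratios, 2.48 [2.38 to 2.58] for *Mccc1* (84.4 and 209.0) and 2.34 [2.22 to 2.47] for *Mccc2* (47.7 and 111.7). The subunits of propionyl-CoA carboxylase were less even. *Pcca* had values of 48.9 and 148.1, a ratio of 3.03 [2.88 to 3.19], and *Pccb* had values of 175.3 and 334.5, a ratio of 1.91 [1.85 to 1.97], so their intervals lay apart.

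*Ivd*, the isovaleryl-CoA dehydrogenase of leucine breakdown, had values of 245.5 and 543.3, a ratio of 2.21. On the valine branch *Hibadh* had values of 248.4 and 568.1 and was called higher. *Hibch*, the hydrolase just before it, had values of 47.9 and 72.05 and was not called. This branch therefore held both a called and an uncalled step.

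The glycine group was above 0 for all 7 members, and 3 were called higher. Those were the enzymes that demethylate the choline-derived methyl-glycines: *Dmgdh* (72.2 and 196.2, ratio 2.72 [2.60 to 2.84]), *Sardh* (190.5 and 473.4, ratio 2.49 [2.42 to 2.55]) and the peroxisomal *Pipox* (193.9 and 394.6, ratio 2.04 [1.98 to 2.09]). The glycine cleavage system differed less. *Amt* (43.1 and 79.6) and *Gcsh* (54.3 and 101.9) had ratios of 1.85 and 1.88, and *Gldc*, its decarboxylase, had values of 192.7 and 231.03, a ratio of 1.20 [1.16 to 1.24]. The direction of *Gldc* turned to lower when the libraries were scaled to equal totals. *Shmt1*, the cytosolic serine hydroxymethyltransferase, had values of 32.5 and 62.96 and a log2 fold change of 0.93.

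Enzymes that handle glutamate and its nitrogen were mostly not called. In this group of 7 the 1 called member was *Agxt2*, which was higher, 4 members were above 0, and the median log2 fold change was 0.01. *Agxt2*, a mitochondrial aminotransferase, had values of 54.8 and 146.8, a ratio of 2.68 [2.55 to 2.81]. *Glud1*, glutamate dehydrogenase, which frees ammonia from glutamate, had values of 707.7 and 448.1 and was 1.58-fold lower in TG+AKI [1.55 to 1.61], short of a call.

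The aspartate aminotransferases of the malate-aspartate shuttle had the smallest positive differences of the group. *Got1* had values of 109.7 and 110.4, a ratio of 1.01 [0.964 to 1.05], and its sign changed with the scaling. *Got2* had values of 267.4 and 337.8, a ratio of 1.26 [1.23 to 1.30]. *Got2* shares 17.2% of its 100-base words with its pseudogene *Got2-ps1*, listed at 10.2 and 12.9, a ratio of 1.27.

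Both alanine aminotransferases had values lower in TG+AKI without reaching 2-fold. *Gpt*, the cytosolic form, had values of 38.4 and 22.9, or 1.68-fold lower [1.54 to 1.84], and *Gpt2*, the mitochondrial form, had values of 76.6 and 70.6, or 1.08-fold lower [1.03 to 1.14]. *Glul*, glutamine synthetase, had values of 527.4 and 824.0, a ratio of 1.56 [1.53 to 1.59].

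The sulfur amino acid route was mixed. *Csad*, which makes hypotaurine and so leads to taurine, was the 1 called member of 4, at 100.1 and 277.7, a ratio of 2.77 [2.67 to 2.88]. Of its exonic bases 7.26% overlap *Zfp740* on the opposite strand. *Cdo1*, the cysteine dioxygenase one step before it, had values of 204.0 and 163.8, a ratio of 0.803 [0.776 to 0.831]. The intervals of these neighbouring steps lay on opposite sides of 1.

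Upstream of cysteine, *Cth*, cystathionine gamma-lyase, had values of 131.5 and 208.1. *Ahcy*, which clears S-adenosylhomocysteine, the product of methyltransferases that use S-adenosylmethionine, INMT among them, had values of 250.8 and 480.1. Its ratio of 1.91 [1.87 to 1.96] did not reach the call. *Ahcy* shares 72.1% of its 100-base words with 2 other annotated genes, most of them with *Gm4737*, which was listed at 37.2 and 74.1.

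The remaining members are oxidases, a decarboxylase and enzymes of the brush border and cytosol. *Dao*, the peroxisomal oxidase of neutral D-amino acids, at chr5:113999635-114025675, had values of 106.5 and 339.7, a ratio of 3.19 [3.08 to 3.30]. *Ddo*, the oxidase of acidic D-amino acids, had values of 25.002 and 45.9, a ratio of 1.84 [1.70 to 1.99], below that of *Dao* with intervals apart. *Aass*, the first enzyme of lysine breakdown, had values of 388.8 and 670.2 and was not called.

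*Ddc*, which makes dopamine in the proximal tubule, had values of 60.9 and 145.1, a ratio of 2.38. *Ggt1*, the brush-border gamma-glutamyltransferase that starts the salvage of glutathione, had values of 362.1 and 980.2, a ratio of 2.71 [2.66 to 2.76]. The aminoacylases remove acyl groups from modified amino acids. *Acy3* had values of 365.8 and 1155, a ratio of 3.16 [3.10 to 3.22], and *Acy1* had values of 46.9 and 103.5, a ratio of 2.20 [2.08 to 2.33]. All 4 members of this group were called higher.

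Called members were found in each cell compartment. Of 25 mitochondrial enzymes 14 were called higher and 1 lower, with a median log2 fold change of 1.14. Among 17 cytosolic enzymes 9 were called higher, with a median of 1.12. Of 3 peroxisomal enzymes 2 were called higher, and so was *Ggt1* at the cell surface.

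Levels of different genes were compared per kilobase of the longest annotated transcript. On that scale *Ass1* (308.7 and 1558 per kilobase) and *Acy3* (243.05 and 767.3 per kilobase) ranked first and second of the 46 in both libraries. *Gatm* stood at rank 28 in WT+AKI with 27.7 per kilobase, and at rank 4 in TG+AKI with 449.8 per kilobase. The largest step down was that of *Arg2*, from rank 19 with 61.05 per kilobase to rank 46 with 5.33 per kilobase. *Glud1* moved from rank 3 to rank 17, and *Cdo1* from rank 7 to rank 22. *Ddo*, at rank 46 in WT+AKI with 8.02 per kilobase, was at rank 44 in TG+AKI.

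**Figure D3:**
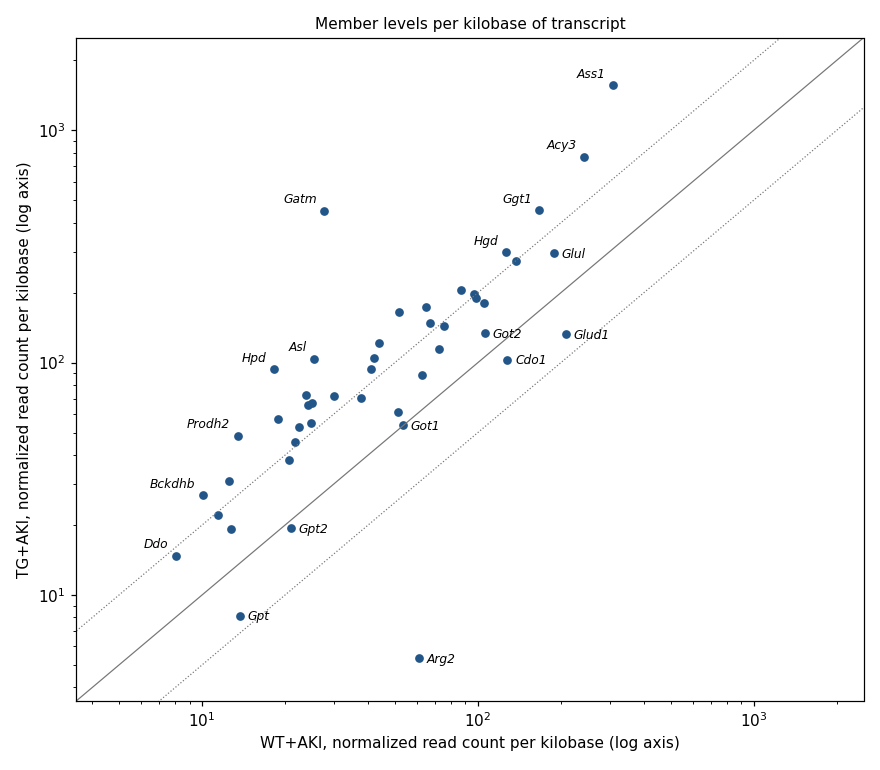
Normalized read count per kilobase of longest transcript in WT+AKI (horizontal, log axis) and TG+AKI (vertical, log axis), 1 point per member and 1 library per group. The solid line marks equal levels and dotted lines 2-fold differences. *Ass1* is the most abundant in both libraries, *Gatm* lies farthest above the line and *Arg2* farthest below it.

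A wider list of 85 other amino acid and creatine enzymes was compared in the same way. Of these, 74 were listed in the table and 64 reached the minimum, of which 23 (35.9%) were called higher and 3 (4.69%) lower, with a median log2 fold change of 0.79. Large ratios belonged to *Bhmt*, which remethylates homocysteine (2.78 and 11.6, ratio 4.17 [3.38 to 5.17]), *Glyctk*, glycerate kinase (67.9 and 218.1, ratio 3.21), *Acat1*, the acetoacetyl-CoA thiolase of isoleucine breakdown (245.8 and 788.3, ratio 3.21), *Gnmt*, glycine N-methyltransferase (9.95 and 31.01, ratio 3.12), and *Aspa*, aspartoacylase (53.7 and 160.8).

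Many of these genes extend the members' own pathways. *Gamt*, which methylates guanidinoacetate to creatine, was called higher at low values of 4.74 and 12.4, and so was *Ckb*, a creatine kinase, at 27.1 and 69.5. *Mmut* (142.1 and 354.3) and *Aldh6a1* (569.0 and 1364) of valine and propionate breakdown, *Acadsb* (74.5 and 166.2) of isoleucine breakdown, *Dhtkd1* (33.2 and 93.3) of lysine breakdown and *Abat* (239.7 and 634.1), which breaks down GABA and beta-alanine, had ratios between 2.23 and 2.81.

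*Cbs* (93.6 and 235.1) and *Suox* (47.2 and 105.02) of the sulfur route, *Dpep1* (72.7 and 193.8) and *Ggct* (10.8 and 26.1) of glutathione turnover, *Aldh9a1* (232.9 and 535.7) and *Glyat* (235.1 and 523.1) were also called higher. *Maoa*, monoamine oxidase A, was 2.41-fold lower in TG+AKI [2.19 to 2.64], from 43.1 to 17.9. The other called genes, named here after their values were seen, were *Qdpr*, *Shmt2*, *Bcat2* and *Gcdh*, which were higher, and *Nos3* and *Psat1*, which were lower. The urea cycle genes *Otc*, *Cps1* and *Arg1* were in the wider list but had no row in the deposited table.

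Markers of cell types were examined beside these results. Of 20 proximal tubule markers, 17 were called higher and none lower, 19 were above 0 and 1 was below it, with a median log2 fold change of 1.76. Their summed values were 16371 and 48230, a ratio of 2.95, against 2.26 over the members. *Kap* alone held 3958 and 17611 of these sums, so their ratio leans on 1 gene. The 1 marker below 0 was *Pck1*, which makes phosphoenolpyruvate for gluconeogenesis, at 2438 and 1682, a log2 fold change of -0.54. All 20 had a row, and the deposited table holds no value of 0 for any gene. The receptor gene *Lrp2* (megalin) was listed at 644.3 and 2754. All 12 injured tubule markers were called lower, with a median of -3.75 and sums of 13477 and 905.5. Of 6 thick ascending limb markers compared 4 were called higher, with a median of 1.17 and sums of 2035 and 4472, of which *Egf* held 54.3 and 1160. Of 4 distal convoluted tubule markers compared 1 was called higher and 1 was below 0, with a median of 0.83. The sums were 257.2 and 764.5, of which *Slc12a3* held 98.5 and 507.0. All sums of markers cover each listed gene, also those under the minimum for a comparison. Of 10 collecting duct markers 1 was called higher, with a median of 0.28 and sums of 454.6 and 601.2. No podocyte marker of 7 (sums 458.6 and 483.9) or endothelial marker of 8 (sums 578.1 and 562.0) was called. Of 8 macrophage markers compared 6 were called lower (sums 193.4 and 81.5), as were 4 of 6 fibroblast markers (sums 622.1 and 269.4), and the 7 listed lymphocyte markers summed to 2.005 and 3.44, all of them under the minimum. Liver cells use many of the same enzymes, and hepatocyte markers were uneven. Of 6 compared 2 were called higher and 2 lower, with a median of -0.44 and sums of 998.4 and 1627. *Alb* was listed at only 0.802 and 8.27, *Apoa1* at 0.991 and 0.996, *Fga* at 688.6 and 39.1 and *Cyp2e1* at 129.9 and 1422. The marker genes given by name were chosen after their values were seen. The part of these differences in the members' values was not tested, and in RNA from whole kidneys fewer proximal tubule cells and less RNA per cell cannot be told apart.

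**Figure D4:**
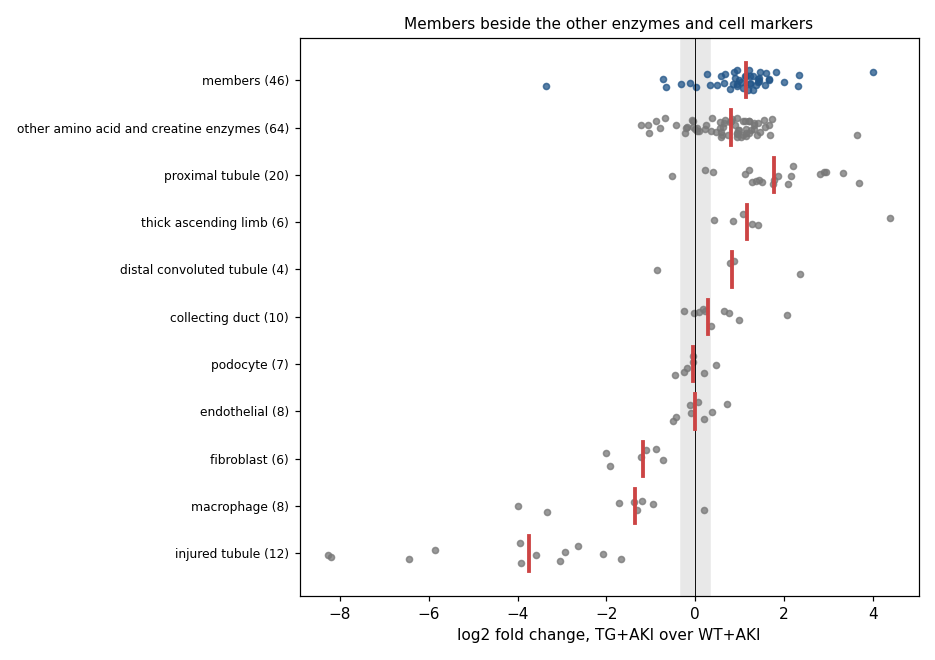
Log2 fold change of each gene (dots; TG+AKI over WT+AKI, log2(value + 1) scale, 1 library per group) in the members and in the other lists, for genes that reached a value of 10 in either library. The number of genes is in brackets, red bars are medians and the grey band spans the middle 50% of all genes compared. The members' median of 1.13 lies between those of the other enzymes (0.79) and the proximal tubule markers (1.76).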

How the data were processed

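Whole-kidney RNA of 2 libraries, WT+AKI and TG+AKI, was analysed, with groups taken from the library names in the sample labels. A stranded mRNA kit was used, per the labels. The study's methods name STAR 2.7.3a for alignment, HTSeq for counting and DESeq2 for normalization. The submitters' processing notes also name edgeR, Cufflinks 2.2.1 and the build mm10. The annotation and the use of strand in counting were not given in the sources used here. The deposited signal values are read counts divided by a library factor. Each was a whole multiple of its column's minimum (100% of values, within 0.01 of a whole number), so reads were recovered by division. One read equals 0.0236 in WT+AKI and 0.0302 in TG+AKI, 3 reads (the floor) equal 0.0708 and 0.0906, and no member was at the floor.

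Comparison on the log2(value + 1) scale covered the 10294 genes that reached a value of 10 in either library. With 1 library per group no test of the conditions was possible. An exact binomial test on reads, with Benjamini-Hochberg adjustment, called 8291 genes. The intervals and calls were tested on simulated data that held counting error only. Such data cannot show how the calls fare against the spread between mice. Members, lists and thresholds were chosen with earlier results of these data known. All members were named. Other enzymes were named for the 20 largest called differences (some items are not reported here), and markers were named as examples after their values were seen. List symbols were matched by symbol, gene ID or synonym (RefSeq, GRCm38.p6). Transcript lengths and overlaps came from GENCODE M21 on GRCm38, the assembly that mm10 denotes. Alternatives were 2 other pseudocounts, 3 other scalings, 3 other filters and the binomial test. Python 3.11.15, numpy 2.4.6, scipy 1.17.1 and pandas 2.3.3 were used.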

Additional observations from a re-analysis of the deposited data

How the results depend on the processing

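No paired analysis was possible because each group holds 1 library. Under the 9 alternatives the members called higher numbered 17 to 27, the members called lower stayed at 1, and no called member changed direction. With equal totals 17 members were called higher (the calls of *Acy1*, *Dbt*, *Ddc*, *Hgd*, *Hibadh*, *Ivd*, *Mccc2*, *Pcbd1* and *Pipox* were lost), with a median of 0.86, as were 12 other enzymes, with 5 lower, and 368 genes higher and 1103 lower, and *Inmt* stood at 4.87. With a pseudocount of 10 the members' median was 0.997, 0 other enzymes were called lower, 372 genes were higher and 408 lower, and *Inmt* was at 4.34. With a median ratio of 1 the members' median was 0.99 and *Inmt* was at 4.996. A filter of 50 gave 374 genes higher, 295 lower and 1 other enzyme lower. Without a filter, and with a filter of 1 (added after seeing the data), 1150 genes and 5 other enzymes were lower. The changes under the filters follow from the number of genes compared. Those under the scalings follow from 1 factor on all TG+AKI values, and those under the pseudocounts from the constant added. Among single members, 116 of 230 values moved by more than counting error, and the signs of the uncalled *Got1* and *Gldc* turned with equal totals. At this depth counting error is small against 2-fold for the members, and the spread between mice is unknown.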
